A study of Schizosaccharomyces pombe with 4 samples.

Results

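The arms of chromosome 3 of fission yeast (Schizosaccharomyces pombe) were followed on tiling arrays that read out bromodeoxyuridine (BrdU), an analogue of thymidine that cells build into newly made DNA. The arms were taken from 100001 to 970000 on the left (870 kb) and from 1240001 to 2353700 on the right (1113.7 kb), in the positions of the array design, which leaves out the outermost 100 kb and the pericentromere with 100 kb on each side. They held 6566 of the 41551 probes, averaged into 989 of the 6233 windows of 2 kb, 434 on the left and 555 on the right. The bounds of the arms used positions only, but the arms were chosen with earlier results of these data known. The arms of chromosomes 1 and 2, cut in the same way, held 4576 windows and served as the comparison.

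Every strain had cdc25-22, a conditional allele of the mitosis-starting phosphatase Cdc25 that fails when cells are warmed, as well as Pnmt1-TK and Padh1-hENT, a thymidine kinase and a nucleoside transporter that let yeast use BrdU. They were arrested in G2 at 37 °C for 4 h and 15 min, released at 26 °C into 10 mM hydroxyurea and 200 µM BrdU, and harvested after 120 min. DNA sheared to 500 to 1000 bp and recovered with an anti-BrdU antibody carried Cy5, and whole-cell extract DNA, called the input here, carried Cy3 on every array, with no dye swap. The 4 arrays were 2 of cells with no further mutation, called wild type, and 2 of cells labelled fft3Δ, a deletion of a SNF2-family chromatin remodeller. Both genotypes were run once in series 1 and once in series 2. Nothing in the labels says that the series were separate cultures, so the spread between arrays may be technical.

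Replication starts at many origins along each chromosome, and origins differ in when and how often they fire. Hydroxyurea starves forks of deoxynucleotides, so BrdU taken up in its presence lies mainly around origins that fire early, while regions copied late take up little. In fission yeast, origins are AT-rich stretches between genes, and large late regions lie near the chromosome ends and along the arms. Only 1 time point was measured, so the values give relative BrdU uptake under hydroxyurea and no replication time.

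Values are log2 of processed Cy5 over processed Cy3 signal, centred on the median of each array, so 0 is the typical probe of that array. A mean of the 4 arrays is called the mean profile. The window values of any 2 arrays over the arms of chromosome 3 correlated at 0.70 to 0.94, the lowest for labelled fft3Δ array 1 with wild-type array 2, and the highest for labelled fft3Δ array 2 with wild-type array 1. Windows are neighbours on one chromosome and are not independent. All probes of the 6 arms were well above background on all 4 arrays, at 6.61 to 6.64 probes per window in each arm. The fft3 gene spans 3611 bp, about 12 probes. In no run of 12 adjacent probes was the input lower in the labelled fft3Δ array by more than 0.28 (log2) in both series. In each series alone the lowest run stood at -0.45 in series 1 and -1.38 in series 2. Whether probes cover fft3 could not be checked, because the build of the array is not known. The deletion was thus not seen in the input of both series, and the arrays are called by their label throughout.

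The arms of chromosome 3 held more BrdU than the arms of chromosomes 1 and 2 on every array. Their mean level was 0.32 and 0.40 on wild-type arrays 1 and 2, and 0.31 and 0.32 on labelled fft3Δ arrays 1 and 2. The arms of chromosomes 1 and 2 stood at -0.16 and -0.13 on the wild-type arrays and at -0.15 and -0.16 on the labelled fft3Δ arrays. No array of one set overlapped the other. The difference was 0.49 ± 0.03 (log2, SD over 4 arrays), in the same direction on 4 of 4 arrays (exact sign-flip permutation test over arrays, two-sided, p = 0.13, the smallest that 4 arrays allow). The same p was obtained for each of the 4 measures compared below, and it stayed 0.13 after Benjamini-Hochberg adjustment over them, so no difference between chromosomes could pass 0.05 in this design.

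Both arms of chromosome 3 shared this level. The left arm averaged 0.33 and 0.43 on the wild-type arrays and 0.33 and 0.34 on the labelled fft3Δ arrays. The right arm averaged 0.31 and 0.37 on the wild-type arrays and 0.30 and 0.30 on the labelled fft3Δ arrays. The left arm was higher on all 4 arrays, but by only 0.04 ± 0.02 (SD, n = 4 arrays, exact sign-flip permutation p = 0.13). Of the other arms, the left arm of chromosome 2 was closest, at -0.01 and 0.05 on the wild-type arrays and 0.01 and 0.00 on the labelled fft3Δ arrays. Chromosome 3 exceeded it by 0.33 ± 0.02 (log2, SD, n = 4 arrays), and exceeded the right arm of chromosome 2, the farthest, by 0.54 ± 0.05.

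**Figure D1:**
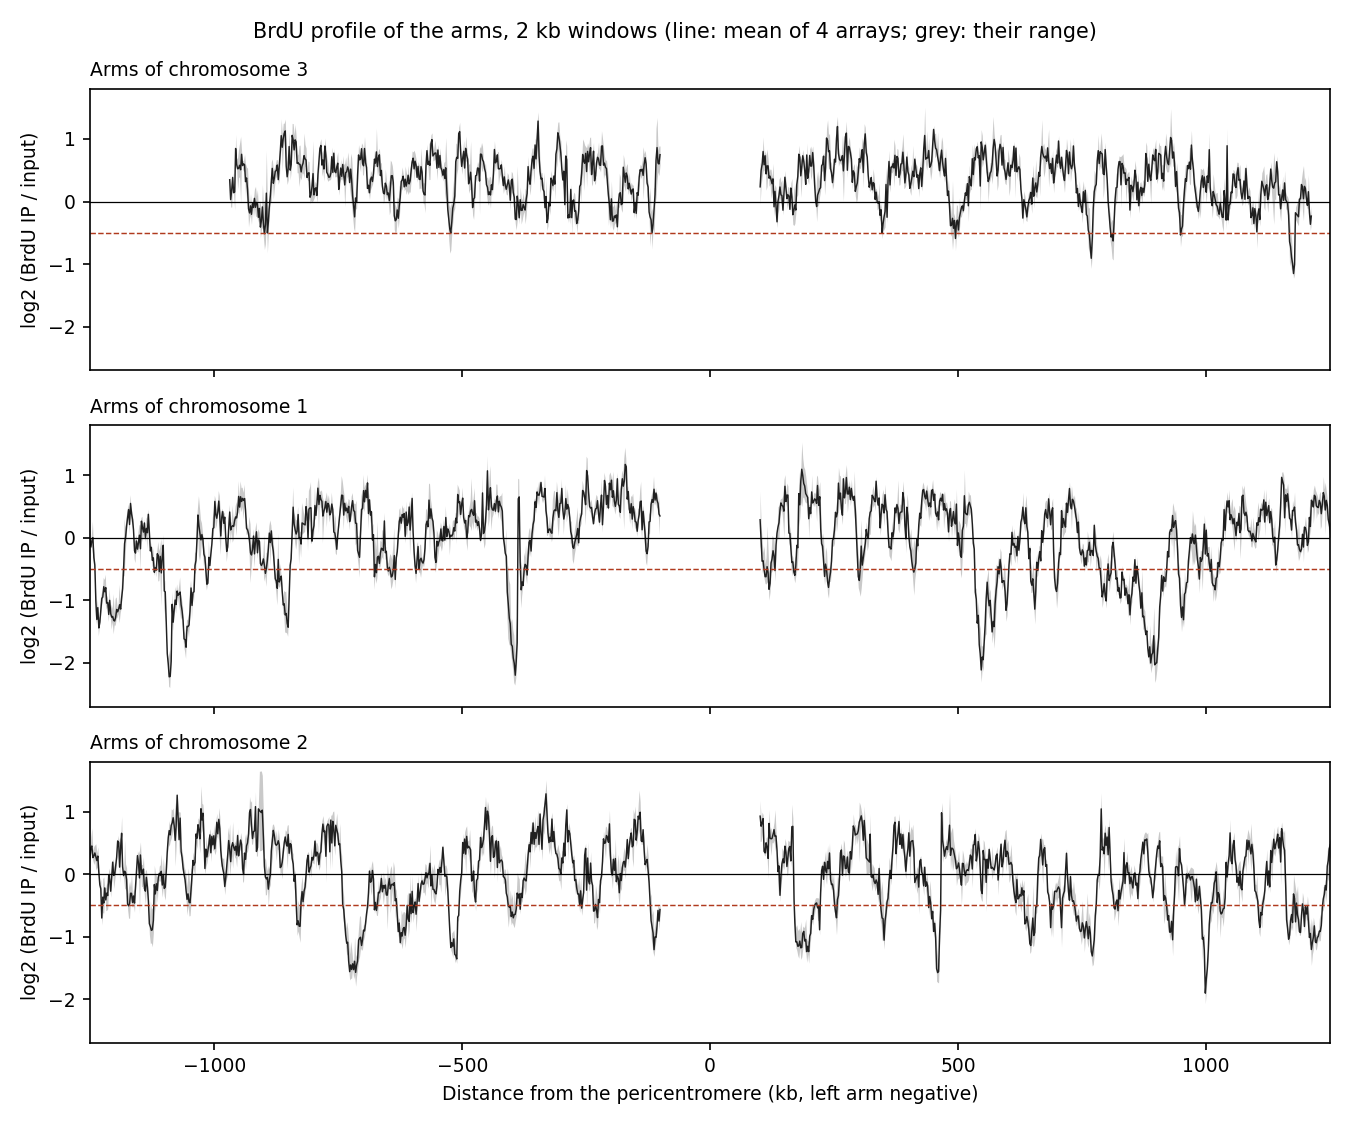
BrdU profile of the arms of chromosomes 3, 1 and 2 in 2 kb windows, as log2 of immunoprecipitated over input signal, against distance from the pericentromere in kb (left arm negative; the longer arms of chromosomes 1 and 2 are cut off at the plot's edge). The line is the mean of the 4 arrays, the grey band their range, and the dashed line the level of -0.5 used for low blocks; chromosome 3 crosses it only in a few short dips.

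Low windows were rare on chromosome 3. Windows under -0.5 made up 2.73% and 1.01% of its arms on wild-type arrays 1 and 2, and 3.34% and 2.22% on labelled fft3Δ arrays 1 and 2. On chromosomes 1 and 2 they made up 28.9% and 24.7% on the wild-type arrays, and 28.0% and 27.5% on the labelled fft3Δ arrays. The sets lay far apart on every array. Windows over 0.5 were also more frequent on chromosome 3, at 35.3% to 40.0% against 11.4% to 15.2%, and those over 1 made up 1.52% to 5.36% against 0.66% to 1.14%.

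The gap between the chromosomes narrowed from the lowest windows to the highest. On the mean profile the 5th percentile of windows was -0.30 on chromosome 3 and -1.18 on chromosomes 1 and 2, and the 25th percentile was 0.10 against -0.53. The 75th percentile was 0.61 against 0.30, and the 95th 0.88 against 0.66. The highest single window was 1.29 on chromosome 3 and 1.28 on the others, and the lowest was -1.15 against -2.22. The SD over windows was 0.37 to 0.43 on chromosome 3 and 0.56 to 0.63 elsewhere, lower on chromosome 3 on all 4 arrays.

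When windows were ranked by level within each set and cut into tertiles of equal size, the lowest tertile supplied 49.4% of the difference in mean level (47.5% to 51.2% over the arrays). The middle tertile supplied 31.7% and the highest 18.9% (17.0% to 21.0%). The lowest tertile averaged -0.15 and -0.01 on the wild-type arrays and -0.18 and -0.11 on the labelled fft3Δ arrays on chromosome 3, against -0.89, -0.76, -0.86 and -0.85 on chromosomes 1 and 2. The highest tertile averaged 0.71 to 0.79 against 0.45 to 0.50.

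**Figure D2:**
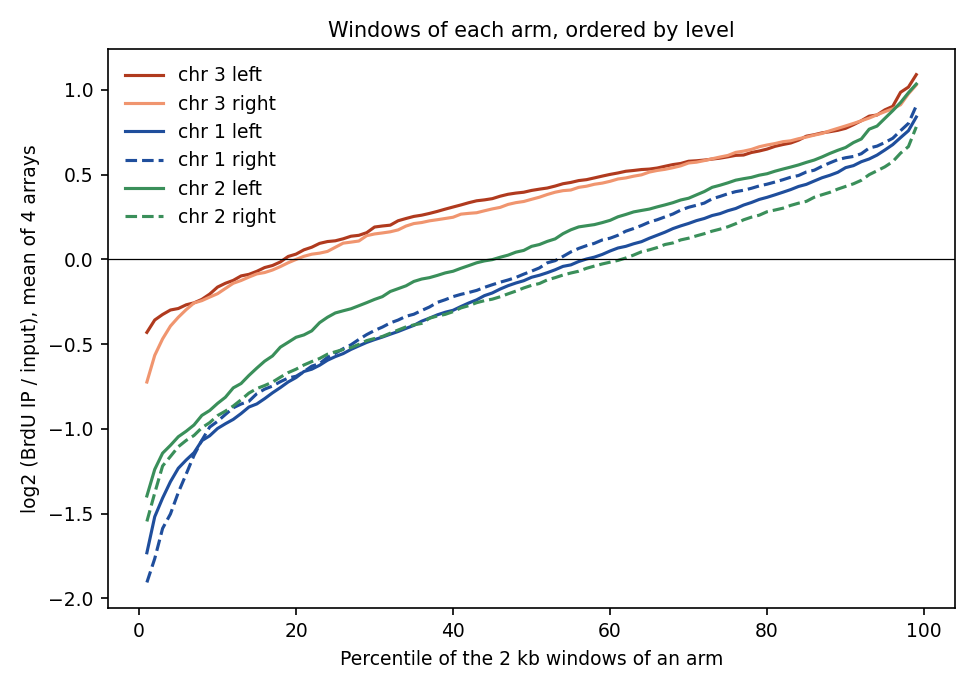
Level (log2 of immunoprecipitated over input signal, mean of 4 arrays) of the 2 kb windows of each arm against their percentile within the arm. The curves of both arms of chromosome 3 lie above the others by most at the low percentiles, and the curve of the left arm of chromosome 2 meets them at the highest.

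Long stretches of low signal were nearly absent from chromosome 3. A low block was defined as 5 or more adjacent windows (10 kb) under -0.5. Such blocks took up 1.11% and 0.51% of the windows of chromosome 3 on wild-type arrays 1 and 2, and 1.11% and 0.00% on labelled fft3Δ arrays 1 and 2. They took up 23.6% and 17.3% of chromosomes 1 and 2 on the wild-type arrays, and 23.6% and 22.9% on the labelled fft3Δ arrays. In percentage points, chromosome 3 minus the others was -21.1 ± 2.91 (SD, n = 4 arrays), lower on 4 of 4 arrays (exact sign-flip permutation p = 0.13). There were 2, 1, 2 and 0 blocks on chromosome 3 against 90, 66, 95 and 82.

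A level shared by all arms calls fewer low windows wherever the whole profile is raised. The blocks were therefore also called at 0.5 under the median of each set's own windows, a setting chosen after the data were seen. They then took up 8.80% and 1.72% of chromosome 3 on the wild-type arrays and 9.61% and 6.98% on the labelled fft3Δ arrays. On chromosomes 1 and 2 they took up 20.1% and 14.5%, and 19.6% and 19.2%. Chromosome 3 stayed lower on all 4 arrays, by a smaller margin of -11.6 percentage points. Its windows also spread less about their own median. On the mean profile the 25th percentile minus the median was -0.29 on chromosome 3 and -0.45 on the others. The drop of 0.5 was not matched for this spread, and the part of the spread in the margin was not tested.

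On the mean profile chromosome 3 had 1 low block and the other arms 79. It covered 2308001 to 2320000, in the outer part of the right arm, at -1.08 and -0.73 on wild-type arrays 1 and 2, and -0.92 and -0.87 on labelled fft3Δ arrays 1 and 2. All 4 arrays were thus low there, and the lowest window of the arms, -1.15, lay in it. It was 12 kb long, while the longest block elsewhere measured 106 kb and the median block 18 kb.

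Low blocks did not account for the whole difference in level. Splitting it into the share of windows in low blocks, the level inside them and the level outside gave 50.9% to the share (35.8% to 56.6% over the arrays), 2.13% to the level inside and 46.9% to the level outside. Outside low blocks, chromosome 3 averaged 0.33 and 0.40 on the wild-type arrays and 0.33 and 0.32 on the labelled fft3Δ arrays. The other arms averaged 0.10 and 0.05 on the wild-type arrays, and 0.11 and 0.08 on the labelled fft3Δ arrays, so the sets stayed apart there too. This split is arithmetic on the 4 profiles and carries no test.

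**Figure D3:**
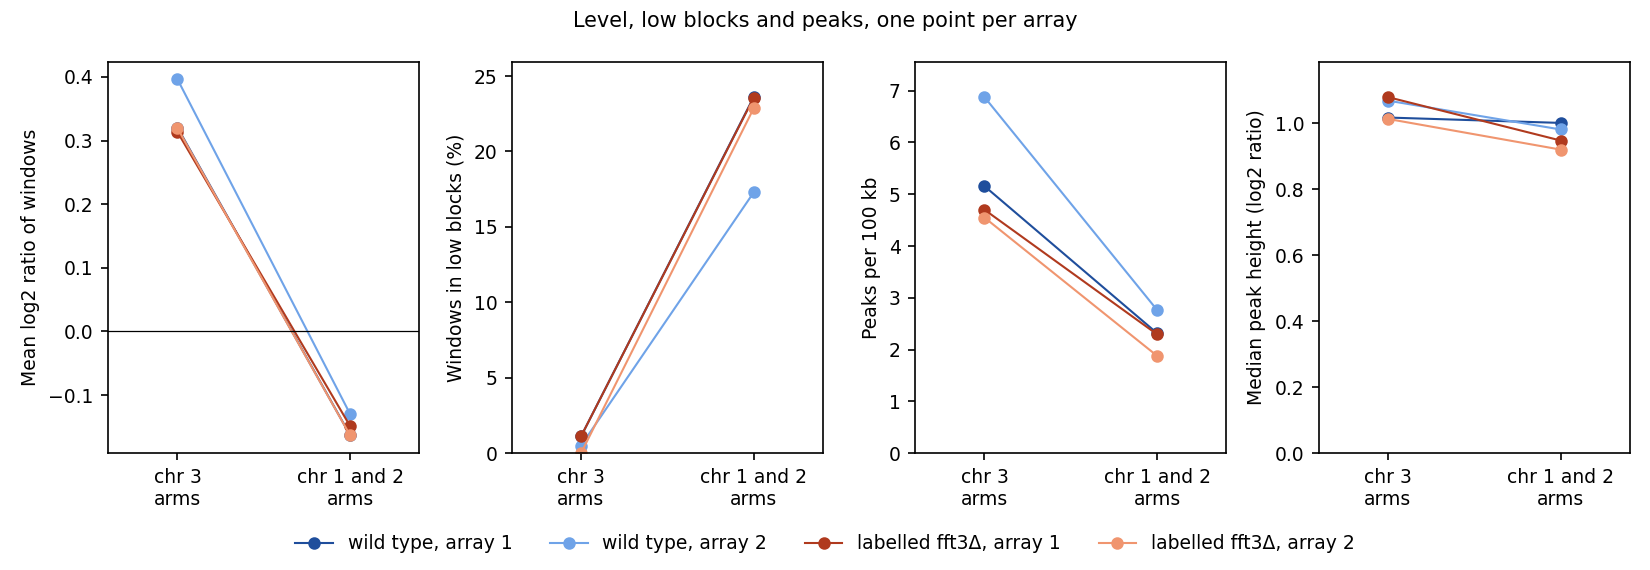
Mean level of windows (log2 ratio), percentage of windows in low blocks, peaks per 100 kb and median peak height (log2 ratio) on the arms of chromosome 3 and of chromosomes 1 and 2, with each line joining the values of one array. The lines fall steeply in level, rise steeply in low blocks, fall in peak density and are nearly flat in height. Some points of wild-type array 1 are covered by others.

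Peaks above a common threshold were denser on chromosome 3. A peak was the highest point within 5 kb on each side of the profile smoothed over 500 bp on each side, at 1 background SD over the array's median, which came to 0.74 to 0.80. Chromosome 3 had 5.16 and 6.88 peaks per 100 kb on the wild-type arrays and 4.70 and 4.55 on the labelled fft3Δ arrays. Chromosomes 1 and 2 had 2.32 and 2.76 on the wild-type arrays, and 2.29 and 1.88 on the labelled fft3Δ arrays. All 4 arrays were higher for chromosome 3, by 3.01 ± 0.76 peaks per 100 kb (SD, n = 4 arrays, exact sign-flip permutation p = 0.13).

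The excess in density did not hold when the threshold was set for each set of arms. Where a whole profile is raised, more of its local maxima pass a fixed level even if they are spaced alike. With the threshold set over the median of each set's own arms, chosen after the data were seen, chromosome 3 had fewer peaks on all 4 arrays, 1.52 to 2.63 against 2.60 to 3.37 per 100 kb, a difference of -0.87. Median height over those medians then differed by -0.12 (log2). The windows of chromosomes 1 and 2 also spread wider about their own median. On the mean profile their 75th percentile lay 0.39 above it, against 0.22 on chromosome 3, and their 95th 0.75 against 0.49. The threshold over the own median was not matched for this spread, and the cause of the reversal was not tested.

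Local maxima were therefore also counted by prominence, the rise of a maximum over the ground around it, which does not depend on the level of the chromosome. Maxima with a prominence of 0.5 or more numbered 12.2 and 17.0 per 100 kb of chromosome 3 on the wild-type arrays and 8.34 and 8.95 on the labelled fft3Δ arrays. Chromosomes 1 and 2 had 11.9 and 15.8, and 7.73 and 8.03. Chromosome 3 was higher on all 4 arrays, by 0.77 ± 0.40 per 100 kb within arrays (SD, n = 4 arrays, exact sign-flip permutation p = 0.13). Between arrays its density ranged from 8.34 to 17.0. Over all chromosomes such maxima numbered 1513 and 2011 on the wild-type arrays, 985 and 1042 on the labelled fft3Δ arrays, and 888 on the mean profile. The mean profile thus held fewer than any single array. How many on a single array were noise was not tested, so their density is not read as a spacing of origins. Median prominence was 0.75, 0.82, 0.74 and 0.73 on chromosome 3 and 0.74, 0.81, 0.72 and 0.69 on the others. It was higher on chromosome 3 on all 4 arrays, by 0.02 (log2).

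The level on which these maxima stood differed between the chromosomes as well. The median apex lay at 0.85 and 0.87 on chromosome 3 on the wild-type arrays, and 0.94 and 0.85 on the labelled fft3Δ arrays. On chromosomes 1 and 2 it lay at 0.47 and 0.38, and 0.51 and 0.47. The median lowest point between neighbouring maxima lay at -0.06, -0.07, -0.06 and -0.01 on chromosome 3 and at -0.49, -0.55, -0.49 and -0.46 on the others. Chromosome 3 was higher by 0.42 ± 0.05 at the apices and by 0.45 ± 0.02 between them (log2, SD, n = 4 arrays), and the sets did not overlap in either. Windows within 5 kb of a prominent maximum of the mean profile averaged 0.42 on chromosome 3 and -0.01 elsewhere, and those farther away 0.20 and -0.33.

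**Figure D4:**
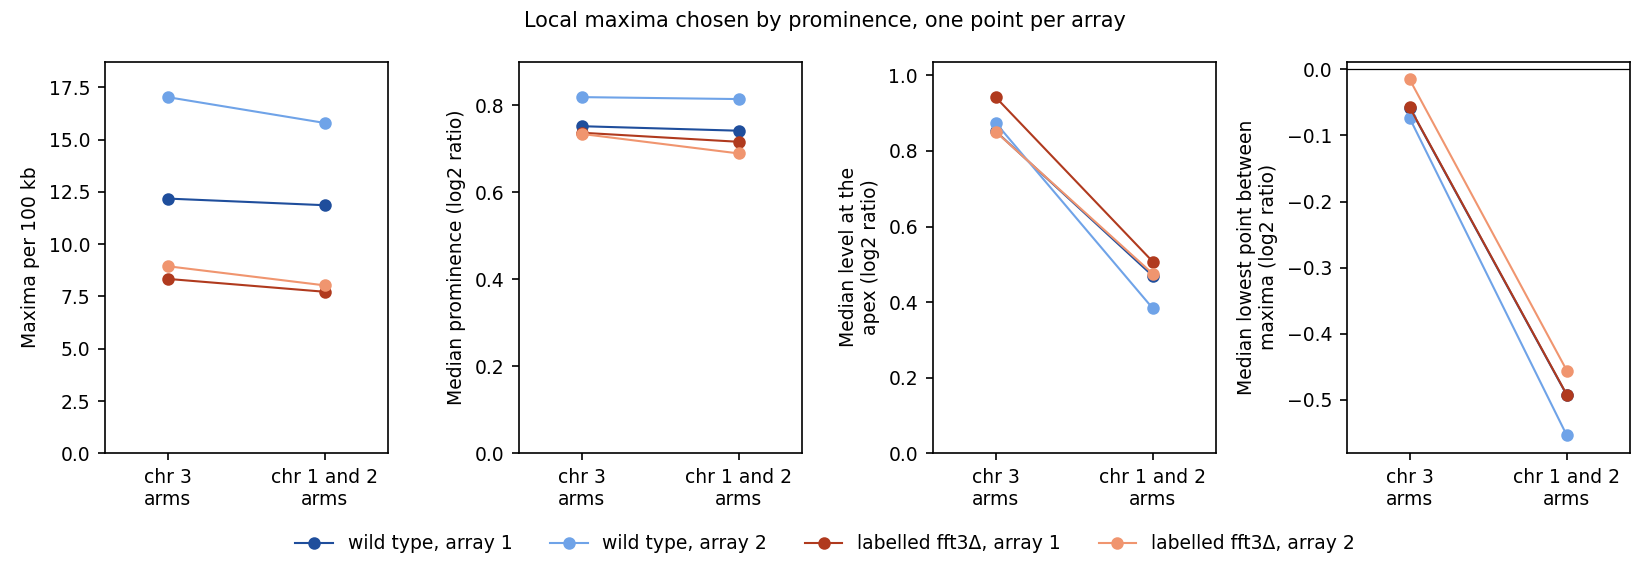
Density of local maxima with a prominence of 0.5 or more, their median prominence, the median level at the apex and the median lowest point between neighbours (log2 ratios), with each line joining the values of one array for chromosome 3 and for chromosomes 1 and 2. Density and prominence are nearly level, at 0.75 against 0.74 in prominence on wild-type array 1, while apex and low point both drop by about as much. Points of wild-type array 1 are hidden in places under those of the labelled fft3Δ arrays.

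The median height of peaks over the common threshold was 1.02 and 1.07 on wild-type arrays 1 and 2, and 1.08 and 1.01 on labelled fft3Δ arrays 1 and 2. The peaks of chromosomes 1 and 2 had medians of 1.0 and 0.98, and 0.95 and 0.92. The difference was 0.08 ± 0.05 (log2, SD, n = 4 arrays, exact sign-flip permutation p = 0.13), from 0.02 on wild-type array 1 to 0.13 on labelled fft3Δ array 1. Only maxima over the threshold enter these medians, so the threshold limits how far they can differ. Against windows at a matched distance from the pericentromere the difference was 0.04, and 1 array went the other way (exact sign-flip permutation p = 0.25). It was 0.13 with normexp background correction, 0.19 in Cy5 alone and 0.20 with the threshold at 0.5 background SDs, higher on all 4 arrays in each. The tallest arm peak of each array lay on chromosome 1 or 2, at 1.85 to 1.95, while the tallest of chromosome 3 reached 1.42 to 1.79.

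Windows within 5 kb of a peak of the mean profile made up 41.5% of chromosome 3 and 16.9% of the other arms, at 0.60, 0.63, 0.63 and 0.60 against 0.53, 0.50, 0.55 and 0.51. Farther from peaks, chromosome 3 averaged 0.12 and 0.23 on the wild-type arrays and 0.09 and 0.12 on the labelled fft3Δ arrays, and the other arms -0.30, -0.26, -0.29 and -0.30. The larger gap thus lay away from these peaks. Only maxima over the common threshold count as peaks here, which limits how far the level near them can differ. The share of windows near peaks accounted for 32.3% of the difference, the level near peaks for 5.42%, and the level away from peaks for 62.3% (58.7% to 66.0% over the arrays). The same split by prominent maxima of the mean profile went the other way. The share of windows near them accounted for 3.89%, the level near them for 53.3% and the level away from them for 42.8%.

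The mean profile held 90 peaks on the arms of chromosome 3 and 168 on the others. A peak within 2 kb was found on 3 or more arrays for 58 of the 90 and 99 of the 168. On all 4 arrays it was found for only 23 of the 90 (25.6%) and 29 of the 168 (17.3%). Neighbouring peaks of chromosome 3 lay a median of 12.3 kb apart, against 17.7 kb, and 8 of its 88 intervals (9.09%) were longer than 50 kb, against 40 of 164 (24.4%). The longest interval was 99.6 kb on chromosome 3 and 627 kb elsewhere. On single arrays the longest interval of chromosome 3 was 63.6 to 105 kb and that of the other arms 273 to 526 kb. These intervals use the common threshold as well.

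The tallest peak of the left arm stood at 722701, with a smoothed apex of 1.43 on the mean profile and the fourth rank among all arm peaks. The mean of the probes within 1 kb was 1.22 and 1.26 there on the wild-type arrays and 1.18 and 1.43 on the labelled fft3Δ arrays, high on all 4. The next of the left arm were 227701 (apex 1.34), 766501 (1.34), 213001 (1.31) and 563701 (1.30). At 227701 the arrays read 1.25, 1.5, 1.18 and 1.05 in the order wild type 1 and 2, labelled fft3Δ 1 and 2. In the same order 766501 read 0.88, 0.88, 1.105 and 1.04, and only 1 array had a peak within 2 kb of it. Such a peak was found on 2 arrays at 563701, and on 3 at 722701, 227701 and 213001. The input (centred log2 of Cy3) was 1.33 at 722701, 1.39 at 227701 and 1.44 at 213001, but 0.62 at 766501 and 0.54 at 563701. The part of the input in these heights was not tested.

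The tallest peaks of the right arm were lower and closer to each other in height. They stood at 1397401 and 1590001 (apex 1.24 each), 1572901 (1.23), 2069101 (1.22) and 1713901 (1.21). The peak at 1590001 read 1.24 and 1.17 on the wild-type arrays, and 1.09 and 1.27 on the labelled fft3Δ arrays. The peak at 2069101 spread far more, at 0.55, 0.97, 1.47 and 1.09, with both labelled fft3Δ arrays above both wild-type arrays. A peak within 2 kb was found on 4 arrays at 1397401 and on 3 at 1572901 and 1713901. At 1590001 and 2069101 it was found on only 2.

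The 3 longest intervals between peaks were not low. The longest, from 2182801 to 2282401 in the right arm, averaged 0.13 and 0.10 on the wild-type arrays and 0.16 and 0.10 on the labelled fft3Δ arrays. The interval from 635101 to 722701 in the left arm (87.6 kb) averaged 0.29 on the mean profile, and that from 852601 to 939601 (87.0 kb) 0.16. All 3 lay above 0 on every array, and their lowest windows, -0.49, -0.29 and -0.41, did not pass -0.5.

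In blocks of 100 kb, 20 of the 21 blocks of chromosome 3 lay above 0, against 36 of 93 (38.7%) of the others, and 12 of the 20 highest blocks of all arms were on chromosome 3. The blocks ran from -0.22 to 0.62 with a median of 0.32 on chromosome 3, and from -1.08 to 0.61 with a median of -0.11 elsewhere. The highest block on the left was 200001 to 300000, at 0.57 and 0.69 on the wild-type arrays, and 0.62 and 0.59 on the labelled fft3Δ arrays, with 8 peaks of the mean profile. This block also had the highest input of all the blocks, 0.45 (centred log2 of Cy3), and the part of the input in its level was not tested. Its neighbour nearer the end, 100001 to 200000, was the lowest of the left arm, at 0.11, 0.28, 0.11 and 0.11, where wild-type array 2 stood above the other 3.

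On the right, the highest block was 1500001 to 1600000, at 0.60 and 0.62 on the wild-type arrays and 0.55 and 0.57 on the labelled fft3Δ arrays, with 9 peaks and an input of 0.09. The lowest was the outermost, 2300001 to 2353700, at -0.25, -0.17, -0.23 and -0.25 with 0 peaks, and it was the only block of chromosome 3 under 0. It held the low block described above, and 24.0% of its 25 windows were under -0.5.

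**Figure D5:**
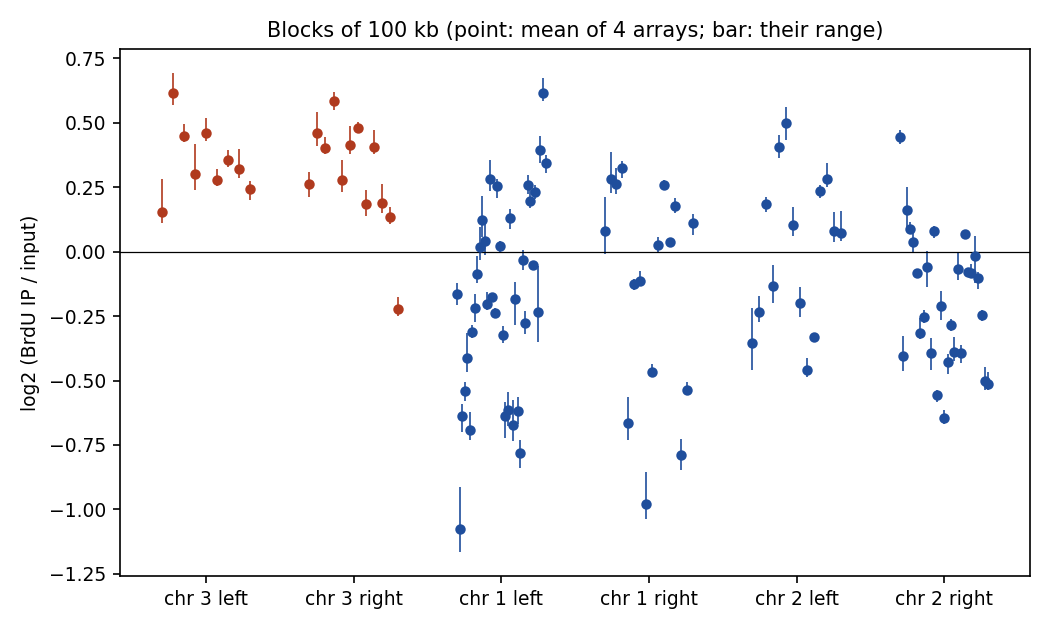
Level (log2 of immunoprecipitated over input signal) of blocks of 100 kb in each arm, in their order along the arm, with the mean of 4 arrays as a point and the range of the arrays as a bar. The blocks of chromosome 3 lie from 0.13 to 0.62 except for 1 at -0.22, and those of the other arms reach down to -1.08.

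The excess of chromosome 3 depended on position along the arm. It was smallest at 100 to 200 kb from the pericentromere, where chromosome 3 averaged 0.23 and the other arms 0.15, and at 1100 to 1200 kb, where they averaged -0.02 and -0.09. It was largest at 800 to 900 kb, with 0.38 against -0.29, and at 500 to 600 kb, with 0.47 against -0.19. From 100 to 500 kb the other arms were themselves above 0, at 0.15 to 0.19. Counted from the outermost probe at the chromosome end, the widest gap was at 200 to 300 kb, with 0.33 against -0.71. Chromosome 3 was higher on 4 of 4 arrays in all 22 distance intervals.

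Chromosome 3 is the shortest chromosome, so more of its arms lies near a pericentromere or an end. Against 2216 windows at the same distances from the pericentromere it was higher by 0.36, and against 2219 windows at the same distances from the end by 0.56, both settings chosen after the data were seen. Against 736 windows matched for both, which only the right arm of chromosome 1 and the left arm of chromosome 2 supplied, it was higher by 0.53. All 3 differences had the same direction on 4 of 4 arrays (exact sign-flip permutation p = 0.13 each). Distance from the end was counted from the outermost probe. The ends of chromosome 3 lie next to ribosomal DNA, so equal distances from an end may not be alike between the chromosomes.

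The input also differed between the chromosomes. On the centred log2 scale of Cy3 alone, chromosome 3 minus the other arms was 0.20 and 0.00 on wild-type arrays 1 and 2, and 0.21 and 0.17 on labelled fft3Δ arrays 1 and 2. Wild-type array 2 thus showed no input difference and had the largest difference in the ratio, 0.53. In Cy5 alone the difference was 0.68, 0.53, 0.67 and 0.66. Within quintiles of windows by input, a setting chosen after the data were seen, chromosome 3 was higher by 0.44 on average, from 0.41 in the quintile of highest input to 0.48. Of the chromosome's windows, 25.8% fell in the highest quintile and 12.4% in the lowest. The ratio itself rose with the input in both sets. From the lowest quintile to the highest it went from 0.09 to 0.51 on chromosome 3, and from -0.38 to 0.10 on the other arms. The part of the input in the ratio was not tested.

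In mean level, labelled fft3Δ and wild type differed little on chromosome 3, relative to the spread of the arrays. The arms averaged 0.36 ± 0.05 in wild type and 0.32 ± 0.00 in labelled fft3Δ (SD, n = 2 arrays each), a difference of -0.04 (exact permutation p = 0.33, the smallest that 2 arrays against 2 allow). Within series 1 the difference was -0.01, and within series 2 it was -0.08. Without wild-type array 2, the highest of the 4, it was 0.00, and in Cy5 alone it had the opposite sign, 0.06. The excess of chromosome 3 over the other arms was 0.48 and 0.53 in wild type and 0.46 and 0.48 in labelled fft3Δ, a difference of -0.03 (exact permutation p = 0.33). Peaks over the common threshold were fewer on both labelled fft3Δ arrays than on both wild-type arrays. The difference was -1.39 per 100 kb on chromosome 3 and -0.45 on the other arms (exact permutation p = 0.33 each).

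No window of chromosome 3 passed the test between genotypes. With limma over all windows and Benjamini-Hochberg adjustment at 0.05, 0 of 989 windows were called, against a background of 0.0% of the 6233 windows of the series. At an unadjusted p under 0.05, 43 of 989 windows were called, beside a background of 4.85%. Of these, 23 were higher in labelled fft3Δ (background 3.64%) and 20 lower (background 1.2%). The share called lies near the background. With series as a block the adjusted test called 8 of 989 (background 1.83%), and without wild-type array 1 it called 1 (background 0.674%). Of the 90 peaks of chromosome 3, limma called 0 after adjustment (background 0.0% of 301 peaks) and 9 at an unadjusted p under 0.05, beside a background of 10.3%. Of the 9, 5 were higher (background 2.99%) and 4 lower (background 7.31%). With series as a block the adjusted test called 4 of the 90 peaks (background 1.99%), and with loess it called 1 (background 0.664%).

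The windows ranked first by moderated t, among those with the same sign in both series, are given as values only, since their adjusted p was 0.882 each (limma). With series as a block the adjusted p of the 3 rises was 0.0111, 0.0317 and 0.008 (limma), in the order given here, and that of the 3 falls 0.128, 0.124 and 0.131. By that rank the first rise was at 1822001 to 1824000, with 0.43 and 0.23 in wild type and 1.16 and 0.80 in labelled fft3Δ. The others were at 956001 to 958000, with a difference of 0.56 ± 0.15 (SE), and at 122001 to 124000, with 0.68 ± 0.18. In all 3 the labelled fft3Δ arrays lay above both wild-type arrays. Cy5 alone differed by 0.41, 0.40 and 0.36 there, in the same order, and the input by -0.26, -0.20 and -0.36. The falls ranked first were at 1304001 to 1306000, 1380001 to 1382000 and 1378001 to 1380000, at -0.41, -0.41 and -0.40. By size alone the differences of chromosome 3 windows reached from -0.54 to 0.68. The windows of the last pair of falls are neighbours, and there Cy5 alone differed by 0.25 and 0.01 and the input by 0.63 and 0.38. At the first fall Cy5 alone differed by -0.11 and the input by 0.27.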

How the data were processed

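Per the file headers, the scanner files were made with Agilent Feature Extraction, version 11.5 for wild-type array 2 and version 12.0 otherwise. The values used are the authors' deposited processed signals, an intensity per channel after background subtraction and dye normalization by that software. Their deposited log10 ratio was read only to learn that Cy5 is the numerator. The ratio per spot in the deposited series matrix was an alternative. Deposited flags, listed as unit other, marked control and non-uniform spots, which were left out (non-uniform: 617 probes on wild-type array 2, 4 to 7 on the others). No probe was saturated. Precision is limited by having only 4 arrays.

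The log2 ratio of the deposited signals was centred per array by its median, without loess or quantile normalization, and averaged in 2 kb windows of 3 or more probes. Windows and peaks were tested with limma 3.58.1 in R 4.3.3 (lmFit, eBayes, genotype as the only term, Benjamini-Hochberg at 0.05). Measures per array were compared with exact permutation tests, two-sided. Tests and the peak caller were tested on simulated data. Alternatives were normexp, loess, Cy5 alone, other windows, thresholds and matched windows, and leaving out each array. The normexp alternative used median signals, in place of the mean signals planned. Python 3.11.15, numpy 2.4.6, pandas 2.3.3, scipy 1.17.1, matplotlib 3.10.9 and version 1.17.8 of the R package data.table were used.

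The members, lists and thresholds were chosen with earlier results of these data known. By rule the text names the 5 tallest peaks of each arm, up to 5 low blocks (1 existed), the 3 longest intervals between peaks, the highest and lowest 100 kb block of each arm, and the 3 rising and 3 falling windows ranked first by moderated t among those with the same sign in both series. Coordinates follow the array design and count from 1. Its build is not given in the sources used here. Its last probe on chromosome 3 starts at 2453701, past the end of the reference at hand (2452883 bp), so no gene was placed and no sequence read by coordinates. Series numbers are shared between genotypes. The deviations of same-numbered arrays from their group means correlated at 0.37 over all windows, but with only 2 pairs the numbers were not taken to pair the arrays.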

Additional observations from a re-analysis of the deposited data

How the results depend on the processing

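The mean level of chromosome 3 stayed above that of chromosomes 1 and 2 under all 18 alternatives (0.35 with loess to 0.63 in Cy5 alone; 0.48 to 0.50 without 1 array), and the share in low blocks stayed lower under all 18 (-25.7 to -5.90 percentage points; -22.6 to -20.6 without 1 array). Peak density (2.64 to 3.21 per 100 kb without 1 array) and peak height (0.07 to 0.10 without 1 array) reversed with peaks called over the median of their own arms, to -0.87 per 100 kb and -0.12 (log2); the cause was not tested. Height was 0.13 with normexp, 0.19 in Cy5 alone and 0.20 over 0.5 background SDs. Over 2 background SDs the density difference was 0.15, with 1 array lower. Height could not be computed there because some array had no peak. The difference in mean level between genotypes on chromosome 3 kept its sign under 12 of 13 alternatives (-0.08 without wild-type array 1 to 0.00 without wild-type array 2, -0.14 with normexp, -0.04 with the replicate block). It reversed in Cy5 alone, at 0.064, and the cause was not tested. Of the windows, 0 passed after adjustment, 43 at an unadjusted p under 0.05, 8 with the replicate block, and 0 to 1 without 1 array; of the peaks, 0 passed, 4 with the replicate block and 1 with loess. The series numbers do not show that arrays are paired, so the block is one more setting. Exact tests over 4 arrays cannot go below 0.13, 3 arrays allow 0.25 and 2 against 2 allow 0.33. With no dye swap, dye bias does not cancel. Hydroxyurea and 1 time point limit all values to relative uptake.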

Other observations

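Local maxima with a prominence of 0.5 or more were fewer on both labelled fft3Δ arrays than on both wild-type arrays, on chromosome 3 and elsewhere alike. Chromosome 3 had 14.6 ± 3.43 per 100 kb in wild type and 8.65 ± 0.43 in labelled fft3Δ (SD, n = 2 arrays each), a difference of -5.97, and the other arms 13.8 ± 2.78 and 7.88 ± 0.22, a difference of -5.96 (exact permutation p = 0.33 for each, the smallest possible). The excess of chromosome 3 in this density was 0.78 per 100 kb in wild type and 0.77 in labelled fft3Δ. Wild-type array 2 had the most maxima, the highest median signal over local background in Cy3 (214 on chromosome 3, against 19.0 to 60.1 on the other arrays) and the most non-uniform probes. The part of these in the result was not tested.

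On chromosome 3 the input was higher on the left arm than on the right on all 4 arrays, by 0.13, 0.05, 0.12 and 0.14 on the centred log2 scale of Cy3 (exact sign-flip permutation p = 0.13), while the ratio differed between the arms by 0.04 on average.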
